A study of Mus musculus with 10 samples.

Results

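Interferon gamma (IFNγ) and type 1 polarization were examined through 10 genes in 10 CT26 tumors that were resected before any treatment. The genes were Ifng itself, the transcription factors Tbx21, Eomes and Stat4, the receptor chains Il12rb1, Il12rb2 and Il18r1, and the cytokine chains Il12a, Il27 and Ebi3. They were taken by name from the deposited count table, and each name matched 1 of its 36009 genes. CT26 is a colorectal carcinoma line of BALB/c mice. All tumors grew subcutaneously in wild-type female BALB/c mice, which were 8 to 12 weeks old by the range the methods give for all mice of the study. Most of each tumor was resected, the resected part went to sequencing, and a hydrogel carrying poly(I:C), a synthetic double-stranded RNA, was then placed on the residual tumor. Responders were the 6 mice whose tumors later regressed completely, and non-responders the 4 mice whose tumors grew with no delay, so the groups were set by later outcome and every library was untreated. The comparison asks whether type 1 genes differed before treatment between tumors that would respond and tumors that would not.

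Type 1 polarization is the program by which CD4 T cells, CD8 T cells and natural killer (NK) cells come to make IFNγ. Dendritic cells and macrophages secrete interleukin (IL)-12 and IL-27, the lymphocyte receptors pass the signal through STAT4, and the T-box factors T-bet (Tbx21) and Eomes switch on Ifng. IFNγ then acts on tumor cells and macrophages, where it raises antigen presentation and the chemokines that bring in more T cells.

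Libraries held 29065126 to 38042544 estimated counts in responders and 23374649 to 32986456 in non-responders. Expression is given as CPM, the usual depth-scaled count, with library totals scaled by the trimmed mean of M values (TMM). Non-responder 1 and responder 5 stood apart: non-responder 1 had the lowest and responder 5 the highest summed level of the T cell, NK cell, macrophage, dendritic cell, B cell and skeletal muscle markers. Among 8 epithelial markers, Krt8, Krt18, Krt19 and Vil1 had no count in at least 1 tumor and Epcam was too low to test, while Krt20 had counts in every tumor. In bulk tumor, fewer cells of a type and less RNA per cell cannot be told apart. Nothing in the labels paired tumors or gave a sequencing batch.

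The promoters of the genes on which the results turn are shown first. RefSeq promoters on GRCm38.p6 were found for 8 of the 10 genes, in 12 windows of 250 bases that end just before an annotated start site. Il12rb1 and Il27 had none. Ifng and Il12rb2 are printed because each holds a GAS element, the STAT binding motif TTCNNNGAA, marked in capitals. Tbx21 and Ebi3 are printed because they were the genes that passed the test below, and the motifs searched have no match in them.
Ifng, chr10:118440796-118441045, plus strand: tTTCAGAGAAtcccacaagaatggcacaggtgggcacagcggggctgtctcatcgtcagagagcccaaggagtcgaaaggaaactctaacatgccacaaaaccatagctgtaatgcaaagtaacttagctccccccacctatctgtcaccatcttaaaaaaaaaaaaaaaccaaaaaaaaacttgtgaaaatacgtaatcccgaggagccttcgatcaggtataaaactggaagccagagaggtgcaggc
Il12rb2, chr6:67376189-67376438, minus strand: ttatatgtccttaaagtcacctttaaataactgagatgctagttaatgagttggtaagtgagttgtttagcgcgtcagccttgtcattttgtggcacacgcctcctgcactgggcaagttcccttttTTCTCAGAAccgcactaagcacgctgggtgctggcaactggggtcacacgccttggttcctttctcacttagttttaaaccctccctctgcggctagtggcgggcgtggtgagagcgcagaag
Tbx21, chr11:97115332-97115581, minus strand: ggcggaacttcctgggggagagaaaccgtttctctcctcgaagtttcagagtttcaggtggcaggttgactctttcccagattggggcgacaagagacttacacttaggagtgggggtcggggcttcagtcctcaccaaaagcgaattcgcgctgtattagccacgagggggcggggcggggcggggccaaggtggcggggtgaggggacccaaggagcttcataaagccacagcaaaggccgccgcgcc
Ebi3, chr17:55952373-55952622, plus strand: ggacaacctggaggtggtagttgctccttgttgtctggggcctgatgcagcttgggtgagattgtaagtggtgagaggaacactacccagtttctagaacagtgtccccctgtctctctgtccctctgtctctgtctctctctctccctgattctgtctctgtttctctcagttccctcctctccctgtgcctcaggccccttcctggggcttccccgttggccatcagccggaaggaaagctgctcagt

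The GAS element of Ifng lies 249 to 241 bases before the start site and that of Il12rb2 lies 123 to 115 bases before it. Searching both strands, the GAS motif was in 3 of the 12 windows and in 7.01% of all 32817 promoters. The 3 windows belong to 3 of the 8 genes, the third being Il18r1. The interferon regulatory factor (IRF) element is a pair of GAAA repeats with 2 bases between them. It was in 2 of the 12 windows, of Eomes and Stat4, and in 2.97% of all promoters. The T-box core TCACACC was in none of the 12 windows and in 3.33% of all promoters. The motifs did not overlap each other in these windows, and a match describes letters and not a bound site.

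Estimates for all 9 genes that could be tested were higher in responders, as were those of 48.2% of all genes tested, and Tbx21 and Ebi3 passed an adjusted p of 0.05 (edgeR quasi-likelihood test, two-sided, adjusted over all 16041 genes tested). Over all genes tested, 4.71% were called higher in responders and 8.06% were called in either direction. The median log2 fold change was 0.91 for the 9 genes and -0.01 for all genes tested. Ifng, Tbx21 and Il27 had a log2 fold change of at least 1, as did 2.47% of all genes tested. An unadjusted p under 0.05 was found for 8 of the 9, with Stat4 the exception, against 15.6% of all genes tested that had such a p and were higher in responders and 29.1% that had one in either direction. The groups did not overlap for Tbx21, Il12rb1 and Ebi3, and 5.84% of all genes tested had every responder above every non-responder. Il12a was too low to pass the filter.

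**Figure D1:**
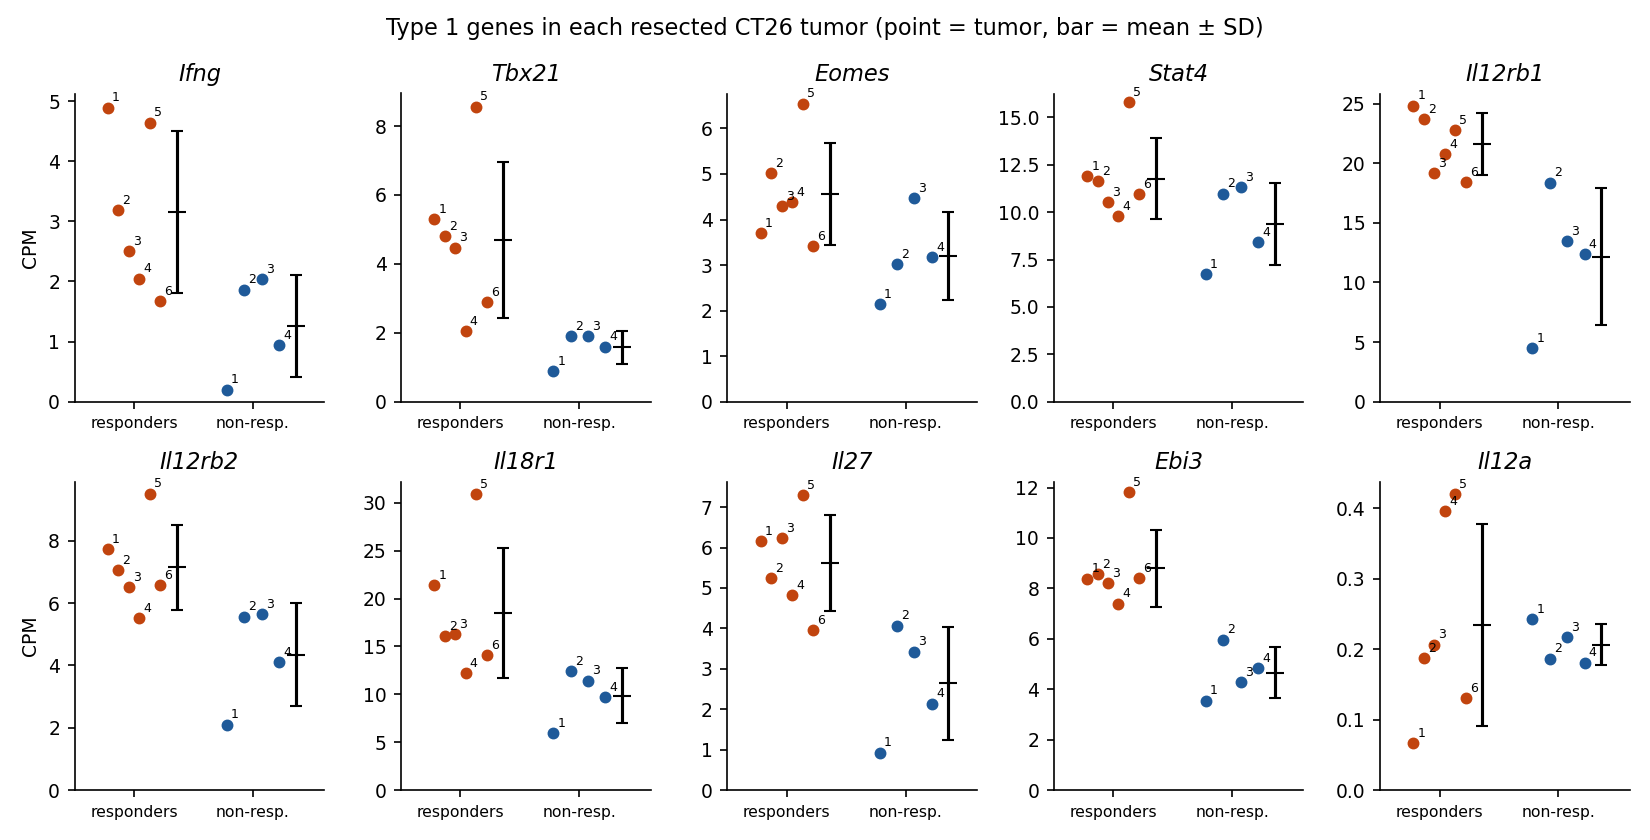
CPM of the 10 genes on linear axes that start at 0, with each tumor as a numbered point (6 responders, 4 non-responders) and bars for the group mean ± SD. The 6 responders lie above the 4 non-responders for Tbx21, Il12rb1 and Ebi3, and the lowest point of every gene except Il12a is non-responder 1.

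Ifng encodes the cytokine that gives the program its name (chromosome 10, 118441046 to 118445892, plus strand, GRCm38). It was at 1.67, 2.85 and 4.89 CPM in the lowest, median and highest responder. In non-responders 1 to 4 it was at 0.202, 1.87, 2.04 and 0.935 CPM. Non-responders 2 and 3 lay within the range of the responders, and 5 of 6 responders were above every non-responder. It averaged 3.16 ± 1.35 CPM over the 6 responders and 1.26 ± 0.856 CPM over the 4 non-responders (SD), a log2 fold change of 1.33 with an SE of 0.49 that did not pass the threshold (edgeR adjusted p = 0.102). Non-responder 1 held 5 counts of Ifng, and without it the log2 estimate was 0.99 (edgeR adjusted p = 0.173).

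Tbx21 encodes T-bet, the T-box factor that directs type 1 differentiation (chromosome 11, 97098071 to 97115331, minus strand). It was at 2.05, 4.64 and 8.56 CPM in the lowest, median and highest responder and at 0.888, 1.90, 1.91 and 1.599 CPM in non-responders 1 to 4. The non-responders were close together while the responders spread over a wider range, and the groups did not overlap. The mean was 4.68 ± 2.26 CPM against 1.57 ± 0.480 CPM (SD, n = 6 and 4), the largest log2 fold change of the 9 genes at 1.57 (SE 0.38, edgeR adjusted p = 0.0372). Responder 4 lay nearest the non-responders. With each tumor left out in turn, the log2 estimate of Tbx21 ranged from 1.305 to 1.73 (edgeR adjusted p 0.0232 to 0.0925). It lost its call in 7 of these 10 fits.

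Eomes, the related T-box factor of NK cells and CD8 T cells (chromosome 9, 118478212 to 118486132, plus strand), differed less. Its lowest, median and highest responder were at 3.42, 4.34 and 6.55 CPM, and non-responders 1 to 4 were at 2.14, 3.02, 4.47 and 3.17 CPM. Only responders 2 and 5 were above non-responder 3, so the groups overlapped broadly. The fitted log2 fold change was 0.52 with SE 0.22 (edgeR adjusted p = 0.150). A difference between the fold changes of Tbx21 and Eomes was not tested.

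Stat4, the signal transducer of the IL-12 receptor (chromosome 1, 51987148 to 52107189, plus strand), had the smallest estimate of the 9 genes. It was at 9.80, 11.3 and 15.8 CPM in the lowest, median and highest responder and at 6.74, 10.97, 11.3 and 8.42 CPM in non-responders 1 to 4. Responder 5 was far above the others, and 3 responders were no higher than the highest non-responder. The fitted log2 fold change was 0.33 (SE 0.17, 95% interval -0.03 to 0.70, edgeR adjusted p = 0.207).

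The receptor chains receive IL-12 and IL-18. Il12rb1, the chain shared by the receptors of IL-12 and IL-23 (chromosome 8, 70808449 to 70821424, plus strand), was at 18.4, 21.8 and 24.8 CPM in the lowest, median and highest responder. In non-responders 1 to 4 it was at 4.48, 18.4, 13.4 and 12.4 CPM. The groups did not overlap, but responder 6 at 18.42 CPM and non-responder 2 at 18.37 CPM were nearly equal. The fitted log2 fold change was 0.83 with SE 0.28 (edgeR adjusted p = 0.0795). Without non-responder 1 it was 0.56 (edgeR adjusted p = 0.0729).

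Il12rb2 encodes the signaling chain that makes the receptor specific for IL-12 and IL-35 (chromosome 6, 67291318 to 67376188, minus strand). Its lowest, median and highest responder were at 5.51, 6.82 and 9.51 CPM, and non-responders 1 to 4 were at 2.10, 5.56, 5.64 and 4.10 CPM. Responder 4 lay just below non-responders 2 and 3, and the other 5 responders were above every non-responder. The fitted log2 fold change was 0.72 with SE 0.24 (edgeR adjusted p = 0.0836).

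Il18r1 encodes the binding chain of the IL-18 receptor, through which IL-18 acts with IL-12 on IFNγ (chromosome 1, 40465552 to 40500854, plus strand). It was at 12.2, 16.2 and 30.9 CPM in the lowest, median and highest responder and at 5.93, 12.4, 11.4 and 9.68 CPM in non-responders 1 to 4. Responder 4 was just below non-responder 2, and responder 5 was the highest. The fitted log2 fold change was 0.91 with SE 0.27 (edgeR adjusted p = 0.0611).

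Il27 and Ebi3 encode the chains of IL-27, a heterodimer made by macrophages and dendritic cells. Ebi3 is also the partner of Il12a in IL-35. Il27 (chromosome 7, 126589010 to 126594941, minus strand) was at 3.97, 5.70 and 7.30 CPM in the lowest, median and highest responder and at 0.929, 4.07, 3.43 and 2.14 CPM in non-responders 1 to 4. Responder 6 lay just below non-responder 2. The fitted log2 fold change was 1.09 with SE 0.32 (edgeR adjusted p = 0.0588).

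Ebi3 (chromosome 17, 55952640 to 55957022, plus strand) rose with the smallest p of the 9 genes. It was at 7.39, 8.40 and 11.8 CPM in the lowest, median and highest responder and at 3.55, 5.97, 4.29 and 4.83 CPM in non-responders 1 to 4. Every responder was above every non-responder. The mean was 8.79 ± 1.53 CPM against 4.66 ± 1.02 CPM (SD, n = 6 and 4), a log2 fold change of 0.91 with SE 0.16 (edgeR adjusted p = 0.0231).

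Il12a encodes p35, the chain of IL-12 that pairs with p40 (chromosome 3, 68690644 to 68698547, plus strand). It had 2 to 15 counts per tumor, against a floor of 3 counts, which equals 0.0783 to 0.130 CPM depending on the library. It was at 0.0666, 0.197 and 0.420 CPM in the lowest, median and highest responder and at 0.242, 0.187, 0.217 and 0.181 CPM in non-responders 1 to 4. The 4 non-responders lay inside the range of the responders, and responder 1 was under its floor. The means, 0.234 and 0.207 CPM, gave an exact two-sided permutation p of 0.7095, and a difference was not detectable at this depth. Its partner Il12b, the p40 chain, averaged 3.45 ± 0.738 CPM over the 6 responders and 2.88 ± 0.513 CPM over the 4 non-responders (SD), with a log2 fold change of 0.26 with SE 0.19 (edgeR adjusted p = 0.387).

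**Figure D2:**
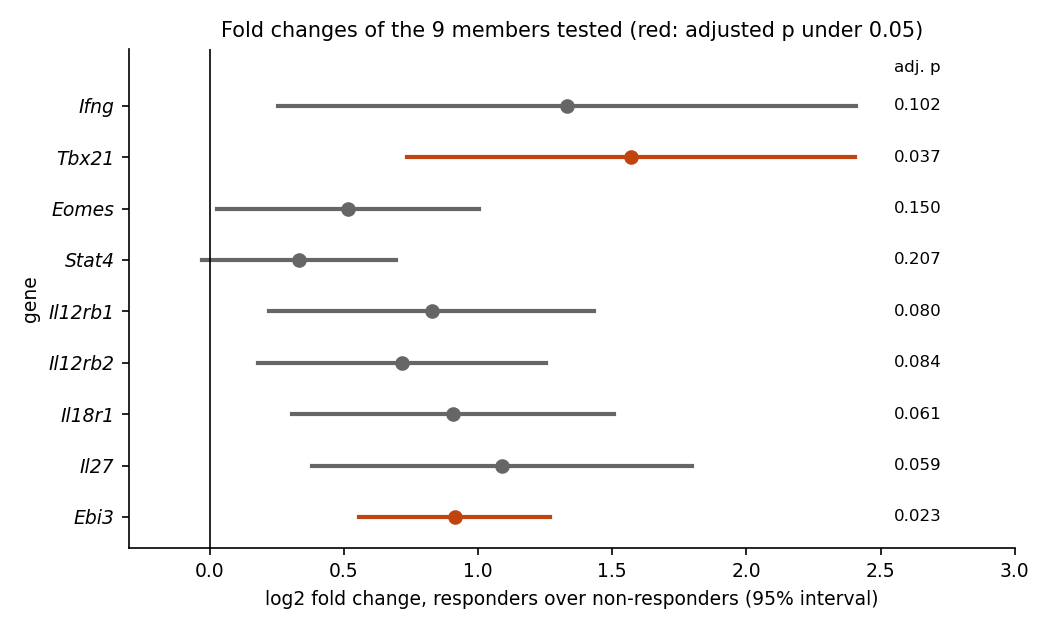
Log2 fold changes of responders over non-responders for the 9 genes tested, with 95% intervals as bars and edgeR adjusted p at the right. Tbx21 and Ebi3 are in red as the genes with an adjusted p under 0.05, and only the interval of Stat4 reaches below 0.

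The calls depended on single tumors. Without responder 3, non-responder 1 or non-responder 4, no gene of the 10 was called by edgeR, while 7, 7 and 6 of the 9 had an unadjusted p under 0.05, as did 25.4%, 22.4% and 25.3% of all genes in either direction. In the same fits 17, 16 and 0 of all genes were called. In those fits the edgeR adjusted p of Tbx21 was 0.0721, 0.0925 and 0.0923 and that of Ebi3 was 0.0566, 0.0556 and 0.0639. Tbx21 also lost its call without responder 1, 2 or 5 and without non-responder 3 (edgeR adjusted p 0.0525 to 0.0640). All 9 estimates stayed higher in responders whichever tumor was left out. DESeq2 called 7 of the 9 genes, all but Eomes and Stat4, and called 16.9% of all genes it gave a p. The loci of Ifng, Eomes, Stat4, Il12rb2, Il27 and Ebi3 overlap those of other annotated genes, and the strand setting of the counting was not given in the sources used here. Whether reads were shared was not tested.

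Levels can be set against each other only per length. As CPM per kilobase of exon, Ebi3 was the highest of the 10 genes in responders at 7.62 ± 1.33 and Il12a the lowest at 0.138 ± 0.0841 (SD, n = 6). Between them came Il27 at 5.504, Il12rb1 at 5.27, Il18r1 at 3.84, Stat4 at 3.04, Ifng at 2.44, Il12rb2 and Tbx21 at 1.88 each and Eomes at 1.10 CPM per kilobase. Each neighboring pair in this order overlapped within 1 SD of each mean, except Eomes and Il12a. In non-responders Ebi3 was again highest at 4.04 ± 0.883 (SD, n = 4), Tbx21 at 0.633 came below Eomes at 0.770, and Il12a was lowest at 0.122 CPM per kilobase. On this scale Il12b was at 1.75 in responders and 1.46 in non-responders, so the p40 chain was far above the p35 chain in both groups.

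The same tumors stood at the ends for most of the 9 genes. Non-responder 1 was lowest for 9 of 9, responder 5 was highest for 7 and responder 1 was highest for Ifng and Il12rb1. With rank 10 as the highest, the mean rank was 9.67 in responder 5, 8.44 in responder 1, 8.11 in responder 2, 6.56 in responder 3, 5.33 in responder 6 and 5.11 in responder 4. It was 1, 4.11, 4.44 and 2.22 in non-responders 1 to 4. Responders 4 and 6 thus lay near non-responders 2 and 3. The genes share each library, so the ranks are not independent of each other.

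**Figure D3:**
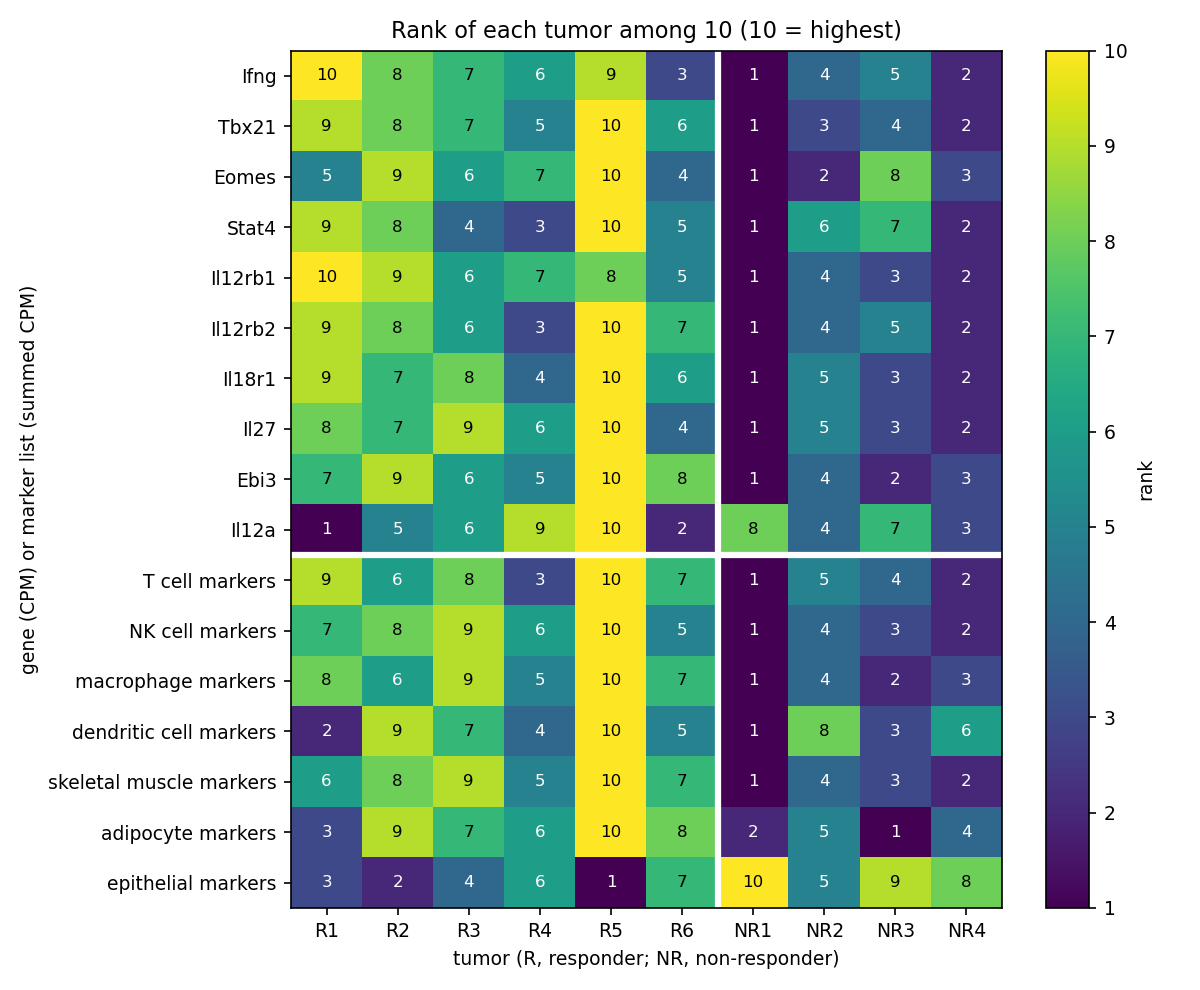
Rank of each of the 10 tumors (10 the highest) by the CPM of each of the 10 genes and by the summed CPM of 7 marker lists, with tumors as columns and genes or lists as rows. Non-responder 1 has rank 1 for every gene except Il12a, and responder 5 has rank 10 for 7 of the 9 genes tested, for Il12a and for every marker list except the epithelial.

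Marker transcripts of the cells that use these genes moved in the same tumors. The summed level of 11 T cell markers was 152.5 to 368.8 CPM in responders and 88.1 to 169.7 CPM in non-responders, with 11 of 11 estimates higher and Lck and Cd8b1 called. That of 7 NK cell markers was 25.9 to 51.4 CPM against 8.72 to 20.3 CPM, with Klre1 and Klri2 called of 5 tested, while Klra4 and Klra8 were at 0 in at least 1 tumor. Macrophage markers summed to 3018 to 4530 CPM against 2133 to 2840 CPM, with 6 of 8 called. Dendritic cell markers overlapped at 48.4 to 68.3 CPM and 46.1 to 61.9 CPM, with Xcr1 called of 7. Skeletal muscle markers were also higher, at 484.6 to 1313 CPM against 353.4 to 475.3 CPM with 3 of 6 called. Adipocyte markers were at 15.7 to 52.1 CPM against 8.54 to 19.2 CPM with none of 4 tested called, and epithelial markers went the other way, at 17.5 to 42.1 CPM against 40.3 to 84.8 CPM with none of 4 tested called. Of all genes tested, 4.71% were called higher in responders. The part of muscle and fat tissue in the results was not tested.

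With the level of Ptprc, the CD45 gene of all leukocytes, as a covariate, neither Tbx21 (log2 fold change 0.21, edgeR adjusted p = 0.957) nor Ebi3 (0.39, edgeR adjusted p = 0.915) was called, and no gene of all those tested was. The mean of the T cell and NK cell markers as covariate also left no call in all genes, with Tbx21 at 0.29 (edgeR adjusted p = 0.807) and Ebi3 at 0.46 (edgeR adjusted p = 0.588). That mean included Klra4 and Klra8, which had at most 3.37 and 1 estimated counts in any tumor. Ifng, Eomes, Stat4, Il12rb2 and Il18r1 had estimates below 0 with either covariate. Unadjusted p-values under 0.05 remained for 5.27% of all genes with Ptprc and 7.79% with the lymphocyte markers. The NK cell marker sum did not overlap between the groups, so lymphocyte content and response group cannot be fully told apart in these fits.

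A second view set each gene against marker transcripts within the same tumor. The 7 lymphocyte genes were divided by the summed CPM of T cell and NK cell markers, and Il12a, Il27 and Ebi3 by that of macrophage and dendritic cell markers, on a log2 scale after adding 0.1 CPM. The mean ratios of the groups were compared over all 210 ways to split the tumors (exact permutation, two-sided), with p adjusted over the 10 ratios. The smallest p this test can give is 0.00476. Summed CPM weighs each marker by its level. Cd4 had the highest mean of the lymphocyte markers, at 88.2 CPM in responders and 73.2 CPM in non-responders (log2 fold change 0.27). Cd8a and Cd8b1 had log2 fold changes of 1.91 and 1.81, above the 1.57 of Tbx21, and the other tested lymphocyte markers were below it. Ratios to CD8 markers alone were not tested.

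Relative to lymphocyte markers, Tbx21 was above every non-responder in 6 of 6 responders, by 0.61 on the log2 scale (exact p = 0.00952, adjusted p = 0.0476). Its log2 ratio was -6.39 to -5.56 in responders and -6.61 to -6.47 in non-responders, with responders 4 and 6 nearest the non-responders. Stat4 went the other way: relative to the same markers it was below every non-responder in 6 of 6 responders, with a difference of -0.48 (exact p = 0.0143, adjusted p = 0.0476). Its log2 ratio was -4.77 to -4.19 in responders and -4.14 to -3.82 in non-responders, so the groups were separate by a narrow gap. Relative to macrophage and dendritic cell markers, Ebi3 was higher in 6 of 6 responders by 0.42 (exact p = 0.00476, adjusted p = 0.0476). The log2 ratio of Ebi3 was -8.81 to -8.59 in responders and -9.22 to -8.90 in non-responders. Il27 was higher by 0.73 in the same measure, with 5 of 6 responders above every non-responder (exact p = 0.0286, adjusted p = 0.0714). Their denominator was mostly macrophage markers, at 3018 to 4530 CPM in responders against 48.4 to 68.35 CPM for dendritic cell markers. Log2 fold changes ranged from -0.13 to 0.87 in the macrophage list and from -0.34 to 1.46 in the dendritic cell list, against 0.91 for Ebi3. Ratios to dendritic cell markers alone were not tested. Ifng was higher by 0.68 with overlapping groups (exact p = 0.105, adjusted p = 0.210).

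The other ratios did not pass. The differences were 0.17 for Il12rb1, 0.07 for Il18r1, -0.04 for Il12rb2, -0.30 for Eomes and -0.47 for Il12a, which rests on 2 to 15 counts per tumor, with exact permutation p from 0.205 to 0.819. Set against lymphocyte markers, the groups overlapped for all 3 receptor chains. With Ptprc as denominator, the ratios of Stat4 (-0.28), Ebi3 (0.29) and Il27 (0.60) passed, and that of Tbx21 (0.82) had an adjusted exact permutation p of 0.0595. Leaving out any tumor other than responder 6 left no ratio past the threshold (the smallest p is then larger, as fewer splits remain), and adding 0.5 CPM in place of 0.1 CPM left 1.

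**Figure D4:**
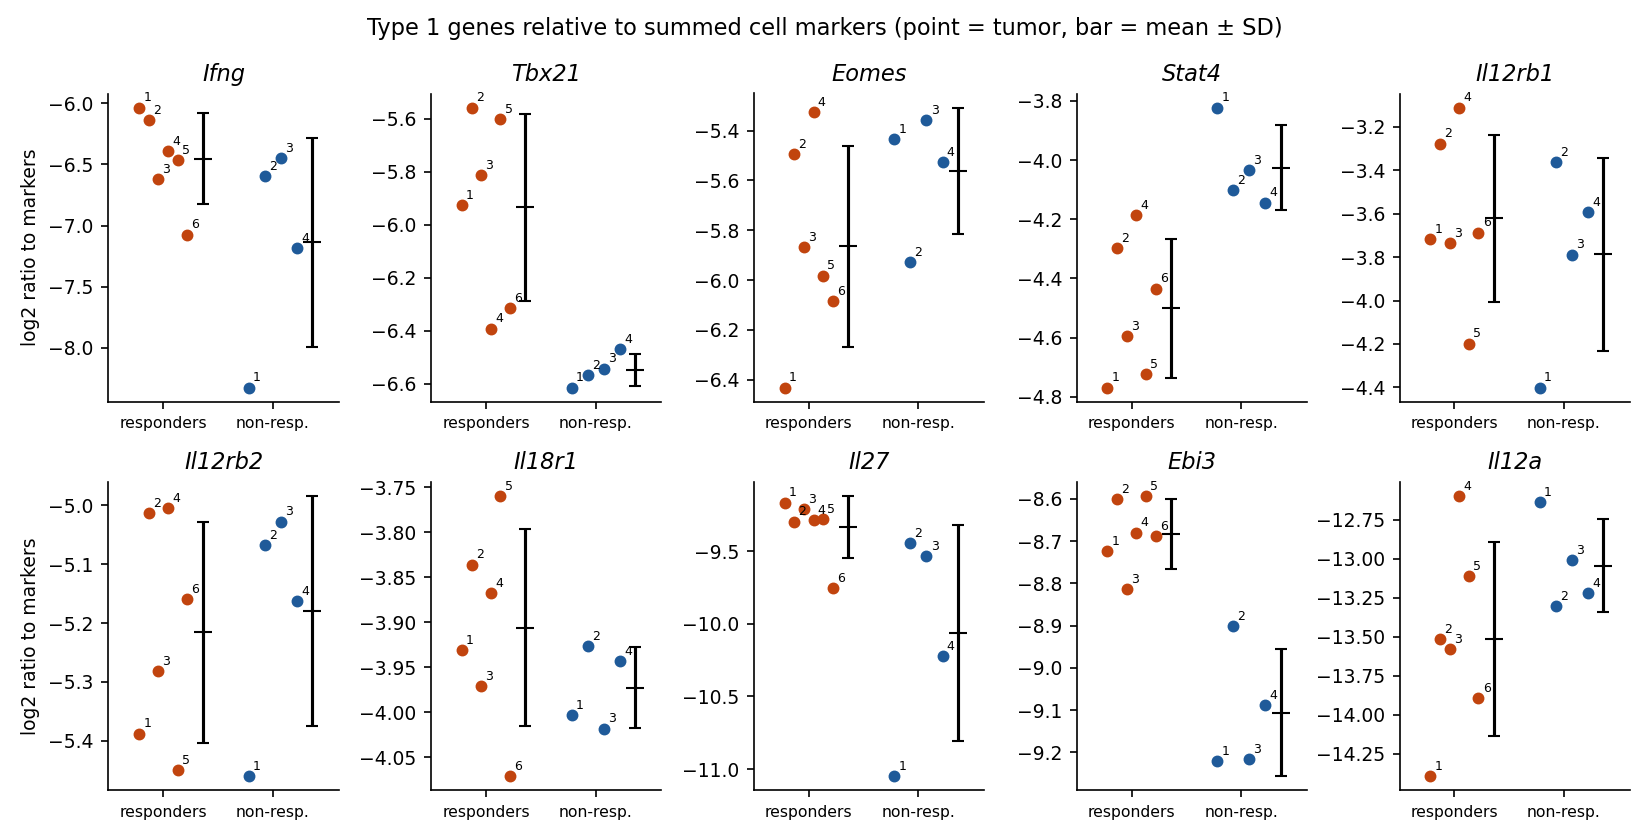
Log2 ratio of each gene's CPM to the summed CPM of its marker genes, with each tumor as a numbered point and bars for the group mean ± SD. The vertical axes differ between genes and do not start at 0. Tbx21 and Ebi3 lie higher and Stat4 lower in all 6 responders than in the 4 non-responders, while the points of Il12rb1, Il12rb2 and Il18r1 mix.

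Around the 10 genes stand the other members of the IL-12 and IL-18 families. Of 6 tested, 5 had higher estimates and none was called, with a median log2 fold change of 0.21, and Il23a and Il23r were too low to test. Il18bp, the secreted antagonist of IL-18, averaged 91.4 ± 14.7 CPM over the 6 responders and 48.0 ± 26.2 CPM over the 4 non-responders (SD), and 6 of 6 responders were above every non-responder without passing (log2 fold change 0.93, edgeR adjusted p = 0.0888). Il18 itself was at 11.5 and 10.1 CPM (log2 fold change 0.19, edgeR adjusted p = 0.518). Il27ra, the receptor of IL-27, had a log2 fold change of 0.23 (edgeR adjusted p = 0.220).

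Downstream stand the IFNγ receptor and its signaling genes. Of 11 tested, 10 had higher estimates and none was called, with a median log2 fold change of 0.13. The receptor chains Ifngr1 and Ifngr2 had log2 fold changes of 0.16 (edgeR adjusted p = 0.137) and -0.02 (edgeR adjusted p = 0.826). Irf1, an early target, was at 385 CPM in responders and 249.5 CPM in non-responders (log2 fold change 0.62, edgeR adjusted p = 0.158). Tyk2, a kinase of the IL-12 receptor, was higher in 6 of 6 responders by a small amount, 66.7 against 57.7 CPM (log2 fold change 0.21, edgeR adjusted p = 0.0632), and the feedback inhibitor Socs1 had a log2 fold change of 0.85 (edgeR adjusted p = 0.0867).

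Target genes of IFNγ had a median log2 fold change of 0.93, with 20 of 20 estimates higher, 3 called and 8 with groups that did not overlap. Of all genes tested, 48.2% had higher estimates, 4.71% were called higher and 5.84% had every responder above every non-responder. The same shares stand beside the counts of the other lists. The paper reports that gene sets of the type I as well as the type II (IFNγ) interferon response were enriched in responsive tumors. It also states that the interferon behind an expression signature cannot be told by computation. Which interferon acted on the genes of this list was not tested. The called genes serve presentation by major histocompatibility complex (MHC) class II. The class II chain H2-Ab1 was at 1033 and 426 CPM in responders and non-responders (log2 fold change 1.28, edgeR adjusted p = 0.0330), and its transactivator Ciita at 109 and 52.6 CPM (log2 fold change 1.05, edgeR adjusted p = 0.0423). The invariant chain Cd74 was at 2901 and 1329 CPM (log2 fold change 1.13, edgeR adjusted p = 0.0452). Cxcl9, the T cell chemokine most closely tied to IFNγ, was at 717 and 354 CPM and did not pass (log2 fold change 1.02, edgeR adjusted p = 0.134). All 3 calls were kept without responder 4 or non-responder 2, and that of H2-Ab1 also without responder 6, while leaving out any other tumor ended them (edgeR adjusted p 0.0511 to 0.109). Macrophages, dendritic cells and B cells also express class II genes. The part of those cells was not tested, and H2 counts depend on a reference of another mouse strain.

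Cytokines and effectors released by type 1 cells had a median log2 fold change of 0.91 over 9 tested, with 9 higher estimates and Fasl called. Fasl, the death ligand, was at 4.66 and 1.92 CPM in responders and non-responders and did not overlap (log2 fold change 1.28, edgeR adjusted p = 0.0467). This call was lost on thinning to the shallowest library (edgeR adjusted p = 0.0518) and with any tumor but responder 4 left out (0.0552 to 0.107). The chemokines Ccl3 and Ccl5 had log2 fold changes of 0.71 (edgeR adjusted p = 0.0607) and 0.91 (edgeR adjusted p = 0.0695). Il2 was too low to test. Among 8 other lymphocyte transcription factors, 7 estimates were higher and Id2 was called, at 87.6 and 62.0 CPM (log2 fold change 0.50, edgeR adjusted p = 0.0461). It kept its call without responder 4 or non-responder 2 and lost it without any other tumor (edgeR adjusted p 0.0586 to 0.118). Tox, a factor of chronically stimulated CD8 T cells, was at 4.48 and 1.33 CPM (log2 fold change 1.75, edgeR adjusted p = 0.0606), and Hlx, a partner of T-bet, had a log2 fold change of 0.32 (edgeR adjusted p = 0.158).

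Genes of the other helper programs had a median log2 fold change of 0.12. Of 9 tested, 8 estimates were higher and Maf was called, at 162 and 120 CPM (log2 fold change 0.43, edgeR adjusted p = 0.0499). This borderline call was lost with no filter (edgeR adjusted p = 0.0513), with the study's filter (0.0501) and with any tumor but responder 4 left out (0.0553 to 0.128). Maf serves several T cell programs and is also expressed by macrophages. Gata3, the type 2 factor, was at 8.06 ± 0.820 and 7.96 ± 0.630 CPM (SD, n = 6 and 4), a log2 fold change of 0.02 with a 95% interval of -0.19 to 0.22 (edgeR adjusted p = 0.926). Il4ra, a chain of the IL-4 receptor, had a log2 fold change of 0.13 (edgeR adjusted p = 0.294). The cytokines Il5, Il13, Il17a and Il17f were too low to test, which sets a limit on any comparison of programs at this depth.

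**Figure D5:**
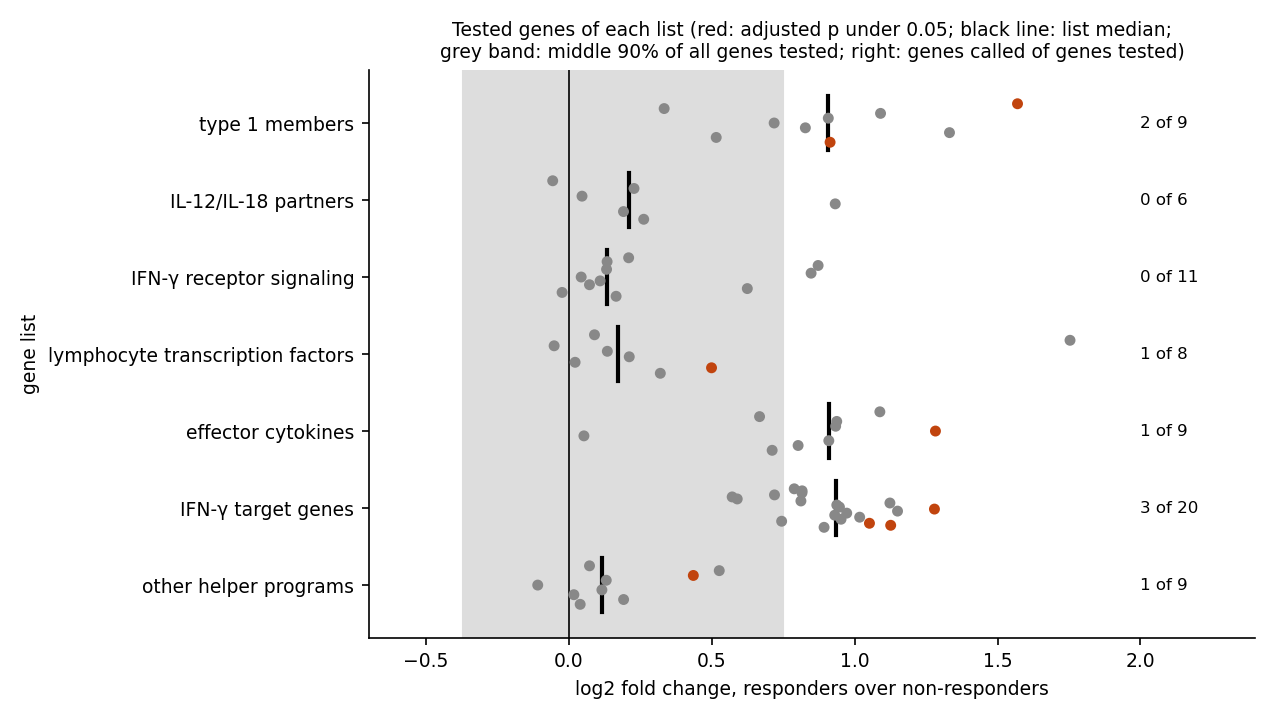
Log2 fold changes of responders over non-responders for each tested gene of the type 1 set and of 6 other gene lists, with genes of adjusted p under 0.05 in red, the median of each list as a line and the middle 90% of all genes tested (-0.37 to 0.75) shaded. The medians of the type 1 genes, the effectors and the IFNγ targets are 0.91, 0.91 and 0.93, and those of the other lists shown are 0.21 or lower. Marker lists are not shown. Their medians were 1.05 for T cell, 0.91 for NK cell, 0.62 for macrophage, 0.014 for dendritic cell and 0.55 for B cell markers. They were 1.025 for skeletal muscle, 2.05 for adipocyte and -0.80 for epithelial markers.

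The genes most like Ifng across tumors were looked for after each group mean was taken out, over 13732 genes of at least 1 CPM. Pearson's r over the 10 tumors was 0.991 for Ass1, which encodes an enzyme of arginine synthesis, 0.979 for Cd274, the checkpoint ligand PD-L1, 0.977 for Plaat3, 0.974 for Apol10b and 0.974 for Rbm43. Without non-responder 1 these values were 0.936 to 0.977. Within the set, r was 0.954 for Il12rb2, 0.951 for Il27, 0.909 for Il12rb1, 0.877 for Stat4, 0.861 for Il18r1, 0.782 for Tbx21, 0.704 for Eomes and 0.673 for Ebi3. Without non-responder 1 they were 0.860 for Il12rb2, 0.852 for Il27, 0.719 for Il12rb1, 0.807 for Stat4, 0.823 for Il18r1, 0.782 for Tbx21, 0.496 for Eomes and 0.446 for Ebi3. Among the genes compared, r over the 10 tumors was at percentile 99.8 for Il12rb2, 99.7 for Il27, 98.3 for Il12rb1 and 97.1 for Stat4. It was at percentile 96.6 for Il18r1, 93.5 for Tbx21, 90.1 for Eomes and 88.7 for Ebi3. The values share libraries and are a description.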

How the data were processed

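Poly(A) RNA of 10 tumors was sequenced in paired ends, and groups were taken from the response label of each sample, with tumors numbered in accession order. The authors checked reads with FastQC 0.11.3, estimated transcript abundance with Kallisto 0.43.0 and summed it to genes with tximport on mm10 (GRCm38). The deposited values are expected counts (estimated, fractional for 45.1% of values). The annotation release, tximport scaling and strand setting were not given in the sources used here, and pseudoalignment splits reads shared between genes. Rows with no gene name (9633, holding 1.04% to 1.23% of counts) stayed in the library sizes and tests under their identifier.

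The tests used edgeR 4.0.16 in R 4.3.3 on rounded counts. Low genes were removed by filterByExpr (minimum count 10, minimum total 15), and libraries were scaled by TMM (factors 0.987 to 1.01) and groups compared by the two-sided quasi-likelihood test with Benjamini-Hochberg adjustment over all 16041 genes and a threshold of 0.05. The SE is the log2 fold change over the root of its F statistic. DESeq2 1.42.0 was an alternative. The others were RLE scaling, no filter, the expression filter of the study's time course, thinning to the shallowest library, Ptprc or lymphocyte markers as covariate, and leaving out each tumor. Ratios to markers were compared by exact permutation. Scripts were tested on simulated data. Gene coordinates are from GENCODE on GRCm38 and promoters from RefSeq on GRCm38.p6. Depth limits genes under a few counts, such as Il12a, and floors cover counting error only.

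The named genes are all 10 members, then from each further list the called genes (at most 4) or otherwise the 3 with the smallest p, further genes of the pathway fixed by name, and the 5 genes most like Ifng. Some genes this rule names are not reported here. The members, gene lists and tests were chosen with earlier results of these data known.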

Additional observations from a re-analysis of the deposited data

Results flagged for a closer look

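Within a group, 6 values of single tumors lay far from the others by Dixon's gap-to-range ratio at the 95% level, out of 64 groups of values examined. Chance flags about 1 in 20 groups, which here gives 3.2. Responder 5 accounted for 4 of them. It was above the other responders for Stat4 (15.8 CPM, next 11.9, ratio 0.648), Ebi3 (11.8 CPM, next 8.55, ratio 0.737), Ifngr1 (114.9 CPM, next 98.0, ratio 0.705) and H2-Ab1 (1463 CPM, next 1037, ratio 0.637). The same tumor had the highest T cell, NK cell and macrophage marker sums, and the part of these in its levels was not tested. Without responder 5, Ebi3 kept its call (log2 fold change 0.81, edgeR adjusted p = 0.0284). Responder 1 was above the others for Ccl3 (11.2 CPM, next 7.53, ratio 0.629). Among non-responders, tumor 4 was high for Hlx (19.8 CPM, next 16.2, ratio 0.900).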

How the results depend on the processing

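No paired analysis was possible, because each tumor came from a different mouse, groups were set by later outcome and nothing in the labels paired tumors. RLE scaling, no filter, the study's filter and thinning each left 2 of the 10 genes called, with 8.02%, 3.61%, 8.03% and 7.47% of all genes called. DESeq2 called 7 of them, 2580 of all genes and 15 list genes (6 by edgeR). With Ptprc or lymphocyte markers as covariate, 0 of the 10 genes, 0 of all genes and 0 list genes were called. Leaving out each tumor gave 0 to 4 of the 10 genes, 0 to 1897 of all genes, 0 to 11 list genes and 0 to 4 ratios, and the ratios with 0.5 CPM added gave 1. The cause of these changes was not tested.

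Of 822 values under alternatives, 34 changed sign, none of them past the threshold. With Ptprc as covariate, log2 fold changes were -0.21 for Ifng, -0.14 for Eomes, -0.27 for Stat4, -0.13 for Il12rb2, -0.13 for Il18r1, -0.11 for Il12b, -0.41 for Il18, -0.0020 for Ifngr1, -0.15 for Irf1, -0.19 for Cxcl9, -0.074 for Gata3, -0.087 for Il18bp, -0.11 for Il27ra and -0.058 for Ccl5. With the lymphocyte markers they were -0.085 for Ifng, -0.033 for Eomes, -0.21 for Stat4, -0.051 for Il12rb2, -0.061 for Il18r1, -0.35 for Il18, -0.021 for Gata3, -0.11 for Il27ra, -0.028 for Ccl5 and -0.048 for Il4ra. With each tumor left out, Ifngr2 ranged from -0.064 to 0.0021, Gata3 from -0.030 to 0.052, the ratio of Il12rb1 from -0.039 to 0.307, that of Il12rb2 from -0.13 to 0.014 and the difference of Il12a from -0.00931 to 0.0613 CPM. Over Ptprc the ratio of Il12rb2 was 0.16.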
